A study of Mus musculus with 28 samples.

Results

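The miR-23/27/24 clusters are a pair of related microRNA (miRNA) loci, and their main arms in blood plasma are described here. The 5 members were mmu-miR-23a-3p, mmu-miR-23b-3p, mmu-miR-24-3p, mmu-miR-27a-3p and mmu-miR-27b-3p, chosen by name as the main arms of the Mir23a, Mir27a and Mir24-2 cluster and of the Mir23b, Mir27b and Mir24-1 cluster. They are 5 of 1966 miRNAs and of 80668 RNAs in the deposited tables. Small RNA was sequenced from 14 female wild-type C57BL/6N mice of 2, 6, 8, 12 and 18 months, with 3, 4, 3, 2 and 2 mice respectively. Blood was drawn from the vena cava, a first spin cleared platelets, debris and large vesicles, and ultracentrifugation split the plasma into an extracellular vesicle (EV) pellet and EV-depleted plasma. The labels give 1 library of each fraction to each replicate, 28 in all. The plasma labels of 2-month replicates 2 and 3 carry 1 joint mouse code, whereas their EV libraries carry separate codes, so it is not known whether these 2 plasma libraries come from separate animals or from a pool. Their counts differed beyond sampling noise (chi-square per degree of freedom 17.7), and they were kept as 2 mice paired by replicate number, with results also given without them. No mouse was treated, and the youngest mice serve as the reference for age. The pellet is enriched for EVs and not pure, so some of its RNA may lie outside vesicles. More vesicles and more RNA per vesicle also cannot be told apart here.

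The mammalian genome carries these clusters as paralogues, each encoding a miR-23, a miR-27 and a miR-24 hairpin that can be transcribed together. A mature miRNA guides Argonaute proteins to messenger RNAs through its seed, bases 2 to 8 counted from the 5′ end, so miRNAs with 1 seed have largely overlapping targets. miR-23, miR-27 and miR-24 are known from endothelium, smooth muscle, T cells and myeloid cells, and miR-27 also from fat and cholesterol metabolism. miR-23a-3p is the usual partner of the red cell miRNA miR-451a in the plasma haemolysis index, because its own plasma level changes little when red cells break.

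The seeds were compared to ask which members can stand in for each other. RefSeq (GRCm38.p6) had no mature entry named mmu-miR-23b-3p, so its seed was not compared with that of miR-23a-3p here. Mature sequences of the other 4 of the 5 members were taken from it, and the seed is in capitals.
mmu-miR-23a-3p: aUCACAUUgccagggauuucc
mmu-miR-27a-3p: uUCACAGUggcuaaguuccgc
mmu-miR-27b-3p: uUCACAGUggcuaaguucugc
mmu-miR-24-3p: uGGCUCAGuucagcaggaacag

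miR-27a-3p and miR-27b-3p share the seed UCACAGU and differ by 1 substitution, C19U, with miR-27a-3p first and positions counted from the 5′ end. The single miR-24-3p sequence is made by both Mir24-2 and Mir24-1, so it cannot be assigned to a cluster from its reads. Among mature mouse miRNAs in RefSeq, miR-5124b, miR-6369, miR-6410 and miR-6413 also carry the miR-24-3p seed, and no library held more than 2 reads of any of them. miR-24-3p therefore supplied nearly all reads with that seed among the miRNAs that RefSeq holds. These were 1675 of the 1966 miRNAs counted, and the seeds of the rest were not looked at.

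The first cluster lies on chromosome 8, plus strand, within 404 bases. Mir23a is at chr8:84208518-84208592, Mir27a at chr8:84208672-84208758 and Mir24-2 at chr8:84208815-84208921 (GRCm38). In the GENCODE annotation it lies in no protein-coding gene, Mir3074-2 lies on the opposite strand of Mir24-2, and the lincRNA Gm26532 starts at the last bases of Mir24-2. The second cluster lies on chromosome 13, plus strand, within 792 bases. Mir23b is at chr13:63300484-63300557, Mir27b at chr13:63300712-63300784 and Mir24-1 at chr13:63301208-63301275. All 3 hairpins lie inside the protein-coding gene 2010111I01Rik on the same strand, Mir23b in introns only and Mir27b and Mir24-1 also overlapping exons of some transcripts, and inside an intron of Fancc on the opposite strand.

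Total counts lay between 928651 and 23905651 per plasma library and between 4764338 and 52753818 per EV library. Of these, miRNA counts were 4977 to 82646 per plasma library and 20063 to 203624 per EV library, so counting error differs widely between libraries. The 6-month plasma library with the lowest total held 4 reads of the rarest member. No pair of libraries of a group had matching counts: the chi-square per degree of freedom over miRNAs was at least 5.03. The labels name no batch, and whether libraries of 1 age were prepared together was not tested. The serial numbers that end the labels put all EV libraries before all plasma libraries, with each age in a block. What these numbers stand for is not given. Should they follow the order of handling, that order cannot be told apart from the fraction.

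All 5 members had reads in all 28 libraries. Together they took 4.15 to 12.7% of miRNA counts in EVs (mean 7.03% ± 2.10, SD, n = 14) and 2.92 to 7.87% in plasma (5.47% ± 1.28, n = 14). miR-23a-3p was the most abundant and miR-27b-3p the least, and the order of the means was the same in both fractions. The mean values in RPM, reads scaled to library size by the authors, were 337 ± 208 in EVs and 214 ± 83.4 in plasma for miR-23a-3p. For miR-24-3p they were 121 ± 74.2 and 75.6 ± 32.1. For miR-23b-3p they were 55.4 ± 30.4 and 30.5 ± 10.0. The miR-27 pair was scarce, with 18.9 ± 13.1 RPM in EVs and 13.4 ± 6.38 in plasma for miR-27a-3p. miR-27b-3p had 7.23 ± 5.82 RPM in EVs and 5.28 ± 2.67 in plasma. By counts, miR-23a-3p ranked between 3 and 8 among all miRNAs in EVs and between 5 and 11 in plasma, whereas miR-27b-3p ranked between 81 and 172 in EVs. Inside each library the order by counts was miR-23a-3p, miR-24-3p, miR-23b-3p, miR-27a-3p, miR-27b-3p in 28 of 28. The counts of miR-24-3p may not hold all of its reads, so its level and place in this order follow the counts as given. The members held by RefSeq are 21 or 22 bases long.

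EV pellets and EV-depleted plasma were compared to ask whether the clusters' products favour one fraction. Relative to other miRNAs, miR-23b-3p and miR-24-3p were higher in EVs in the main fit, which had age as covariate and did not use the pairing. miR-23a-3p missed the threshold in that fit and passed it with the mouse as a block. The miR-27 pair passed in neither. Levels are given in CPM, counts of a miRNA scaled to the library's miRNA counts by the trimmed mean of M-values (TMM).

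miR-23b-3p ran from 5014 to 10037 CPM in EVs with a median of 7374, and from 2954 to 7089 in plasma with a median of 5294. It was higher in EVs in 14 of 14 mice, and in 12 of 12 without the mice of joint code, although the ranges of the fractions overlapped. The log2 fold change EV over plasma was 0.55 (SE 0.13), with an adjusted p of 0.00371 by edgeR's quasi-likelihood test (Benjamini-Hochberg over all miRNAs tested).

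miR-24-3p ran from 9825 to 22967 CPM in EVs with a median of 15998, and from 6694 to 17346 in plasma with a median of 12415. EVs were higher in 13 of 14 mice, and the remaining mouse differed by -0.01 on the log2 scale. The log2 fold change was 0.38 (SE 0.13, edgeR adjusted p = 0.0367). This call was lost when any of 5 mice was left out (2-month replicate 1, 8-month replicates 2 and 3, 12-month replicate 1 or 18-month replicate 1), with adjusted p from 0.0585 to 0.124. It was also lost without both mice of joint code (log2 fold change 0.38, edgeR adjusted p = 0.0690), where miR-23b-3p kept its call (0.59, adjusted p = 0.00420). With the mouse as a block and without those 2 mice both were called (adjusted p = 0.00127 for miR-24-3p and 0.000197 for miR-23b-3p).

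miR-23a-3p ran from 28209 to 71691 CPM in EVs with a median of 43633, and from 19162 to 45958 in plasma with a median of 34080. EVs were higher in 13 of 14 mice. The log2 fold change was 0.35 (SE 0.13) and missed the threshold (edgeR adjusted p = 0.0681). With the mouse as a block, which compares the fractions inside each animal, the log2 fold change of 0.34 (SE 0.08) passed it (adjusted p = 0.00267).

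miR-27a-3p ran from 1200 to 3408 CPM in EVs (median 2255) and from 1140 to 3154 in plasma (median 2235), and 8 of 14 mice were higher in EVs. Its log2 fold change was 0.19 (SE 0.16, edgeR adjusted p = 0.444). miR-27b-3p ran from 276 to 1560 CPM in EVs (median 892) and from 294 to 1555 in plasma (median 781), and 9 of 14 mice were higher in EVs. Its log2 fold change was 0.13 (SE 0.22, edgeR adjusted p = 0.752). For both miR-27 members the fractions covered nearly the same range, and with the lower counts behind them the standard errors were larger than for miR-23 and miR-24.

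**Figure D1:**
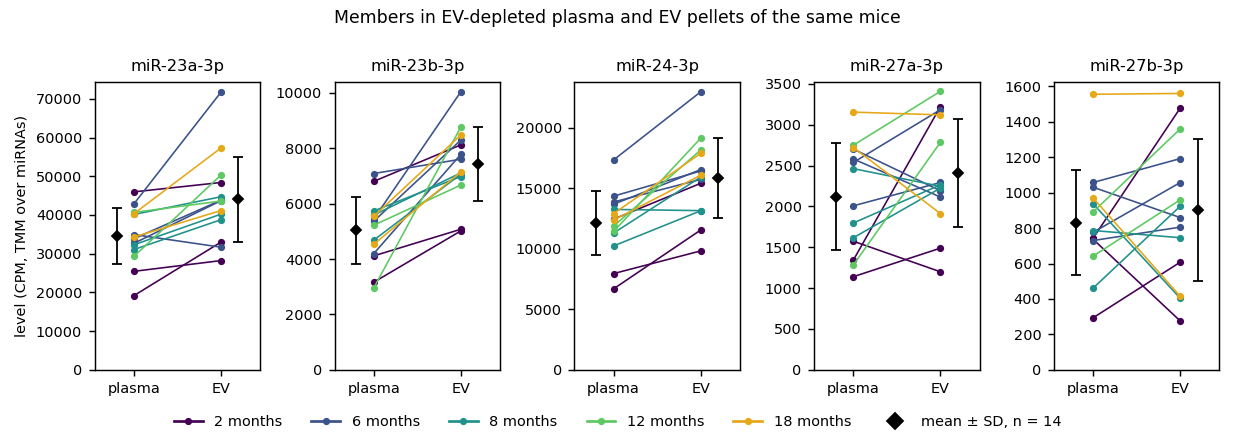
Levels of the 5 members (vertical axes, CPM with TMM scaling, each from 0) in EV-depleted plasma and EV pellets, with a line for each of the 14 mice coloured by age and diamonds for mean ± SD. All 14 lines for miR-23b-3p and 13 of 14 for miR-23a-3p and miR-24-3p rise toward EVs, against 8 for miR-27a-3p and 9 for miR-27b-3p.

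In all, 2 of 5 members were called, both higher in EVs, where 61 of 333 miRNAs tested (18.3%) were called in either direction and 27 of 333 (8.11%) as higher. The members' median log2 fold change was 0.35, beside 0.02 over all 333. With the mouse as a block, 3 of 5 members were called (miR-23a-3p, miR-23b-3p and miR-24-3p), all higher in EVs, where 88 of 333 miRNAs (26.4%) were called and 40 (12.0%) as higher. Scaled by the divisor behind the authors' RPM in place of TMM, the median of all miRNAs moved to 0.28, the members lay between 0.46 and 0.82, and 1 of 5 was called (miR-23b-3p, adjusted p = 0.0294). miR-451a, which is made in developing red cells, had a log2 fold change of -0.10 (SE 0.21, edgeR adjusted p = 0.794).

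**Figure D2:**
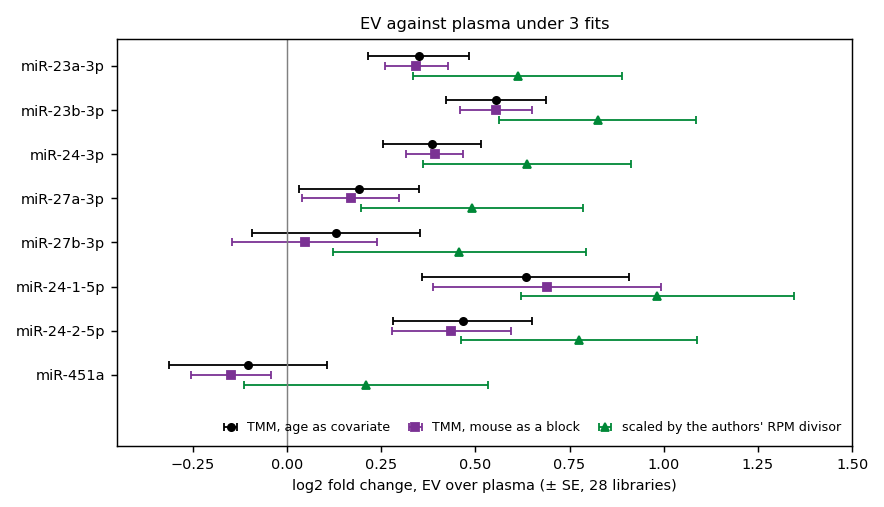
Log2 fold changes EV over plasma (horizontal axis, ± SE, 28 libraries) for the 5 members, both miR-24 5p arms and miR-451a under 3 fits. miR-23b-3p lies at 0.55 with TMM and at 0.82 with the authors' RPM divisor, and the blocked fit has the shortest bars for the 5 members.

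Ratios of members inside a library need no scaling between libraries and set the paralogues against each other. The ratio of miR-23a-3p to miR-23b-3p was lower in EVs, while the other 3 ratios did not pass the test. miR-23a-3p outnumbered miR-23b-3p between 4.16 and 7.14 to 1 in EVs, with a median of 5.74, and between 4.92 and 9.72 to 1 in plasma, with a median of 7.02. The ratio was lower in EVs in all but 2 of 14 mice, and the 2 exceptions were higher by 0.04 and 0.12 in log2. The mean within-mouse difference, EV minus plasma, was -0.23 in log2 (SD 0.21, n = 14), an exact sign-flip permutation p of 0.000977 and 0.00391 after Benjamini-Hochberg adjustment over the 4 ratios. It lay between -0.26 and -0.19 with any 1 mouse left out, and at -0.26 without both mice of joint code (adjusted p = 0.00391, exact sign flips). Thus miR-23b-3p, from chromosome 13, took a larger part of the miR-23 reads in EVs than in plasma. Since miR-23a-3p and miR-23b-3p are close in sequence, these ratios rest on how the authors' counting separated them. The sources used here do not give that rule, and both miRNAs had whole counts in every library.

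The ratio of miR-27a-3p to miR-27b-3p had a median of 2.60 in EVs (1.98 to 5.42) and 2.57 in plasma (1.79 to 3.71). The mean log2 difference was 0.15 (SD 0.57, 8 of 14 mice higher in EVs, exact sign-flip p = 0.329, adjusted p = 0.438). The spread of this ratio was wider than that of the miR-23 pair, and whether the pairs differ was not tested.

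Both miR-27 together were 0.0596 of both miR-23 in EVs and 0.0775 in plasma, as medians. The mean log2 difference was -0.22 (SD 0.55, exact sign-flip p = 0.156, adjusted p = 0.312), and 6 of 14 mice were higher in EVs. Without 2-month replicate 3, whose ratio was higher in EVs by 1.07 in log2, the difference was -0.32 with an adjusted p of 0.0439, and this mouse is 1 of the 2 of joint code. Without both the difference was -0.33 with an adjusted p of 0.0586. miR-24-3p stood at 0.288 of the other 4 members in EVs and 0.281 in plasma, as medians. This ratio takes the miR-24-3p counts as given, which may not hold all of its reads. That ratio differed by 0.03 in log2 (SD 0.22, 8 of 14 mice higher in EVs, exact sign-flip p = 0.625, adjusted p = 0.625). It was the closest of the 4 ratios between the fractions.

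**Figure D3:**
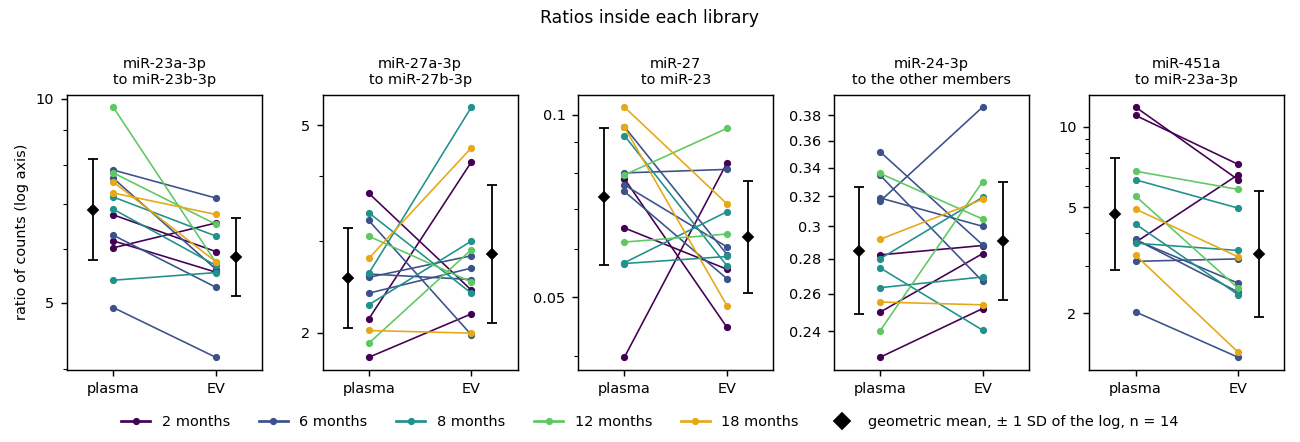
Ratios of counts inside each library (vertical log axes) in plasma and EVs, with a line per mouse coloured by age and diamonds for the geometric mean with bars of 1 SD of the log. The lines of miR-23a-3p to miR-23b-3p fall toward EVs in 12 of 14 mice, as do those of miR-451a to miR-23a-3p, while the lines of the other panels cross.

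The other arms of the 6 hairpins were far scarcer than the main arms. The 5p arms of miR-24 are the products that tell Mir24-1 from Mir24-2, and their sequences from RefSeq, with seeds in capitals, are shown for that reason.
mmu-miR-24-1-5p: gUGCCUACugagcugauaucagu
mmu-miR-24-2-5p: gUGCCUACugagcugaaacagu

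They share a seed and differ toward the 3′ end. miR-24-2-5p had 717 counts in EVs and 268 in plasma, and miR-24-1-5p had 193 and 66. miR-24-2-5p thus made up 78.8% of the miR-24 5p counts in EVs (exact 95% binomial interval 76.0 to 81.4%, counting error only) and 80.2% in plasma (75.6 to 84.4%). The intervals of the fractions overlapped. The larger part came from chromosome 8 in each comparison of the paralogues: miR-23a-3p was 86.1% of the miR-23 reads in EVs and 87.1% in plasma, and miR-27a-3p 72.1% and 71.6% of the miR-27 reads, over pooled counts.

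As a share of 5p plus 3p counts, miR-24-2-5p was 4.59% in EVs (exact interval 4.27 to 4.93%) and 4.28% in plasma (3.79 to 4.81%). For miR-24-1-5p the share was 1.28% and 1.09%. These shares take the miR-24-3p counts as given, which may not hold all of its reads. miR-23a-5p had 22 counts in EVs against 41424 of its 3p arm, a share of 0.0531% (0.0333 to 0.0804%), and 19 against 17817 in plasma. miR-23b-5p, miR-27a-5p and miR-27b-5p had between 5 and 10 counts over all libraries of a fraction, and no library reached 1 RPM of these 3 or of miR-23a-5p. Only the miR-24 5p arms therefore entered the test between fractions. Their log2 fold changes EV over plasma, 0.63 (SE 0.27) for miR-24-1-5p and 0.47 (SE 0.19) for miR-24-2-5p, had the sign of miR-24-3p and missed the threshold (edgeR adjusted p = 0.105 and 0.0779). With the mouse as a block miR-24-2-5p passed it (adjusted p = 0.0412) and miR-24-1-5p did not (adjusted p = 0.0934). miRNAs of the antisense Mir3074 hairpins had at most 50 counts over the libraries of a fraction.

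Age was followed from 2 to 18 months in each fraction. The order of the ages depended on the scale. In CPM and as shares of miRNA counts, the age with the lowest mean was 2 months for several members, whereas in RPM all 5 members had their lowest mean at 8 months in both fractions. For miR-23a-3p in EVs the mean was 267 RPM at 2 months and 175 at 8 months, and in plasma 187 and 143. No member passed the test for a trend in either fraction.

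In EVs, miR-24-3p had 9825, 11547 and 15410 CPM at 2 months, and 15737, 16428, 16544 and 22967 CPM at 6 months. At 8 months it had 13138, 13157 and 15922 CPM, at 12 months 18155 and 19126, and at 18 months 16075 and 17880. The 4 oldest mice lay above all 3 youngest, and the middle ages overlapped both. For each other member in EVs the oldest and youngest mice overlapped. The share of all 307 miRNAs that separate these ages was not counted, so the separation is a description only. The log2 fold change of 12 and 18 months together against 2 months was 0.63 (SE 0.27, edgeR adjusted p = 0.290). For the others it lay between 0.45 and 0.59, with adjusted p from 0.400 to 0.611. These values rested on single young mice: without 2-month replicate 3 they were 1.11 for miR-27a-3p, 1.36 for miR-27b-3p and 0.68 for miR-23b-3p, and without 2-month replicate 1 they were 0.33 for miR-27a-3p and 0.11 for miR-27b-3p. The slopes in EVs lay between 0.024 and 0.035 log2 units per month for the 5 members, with adjusted p from 0.480 to 0.664. All 5 were positive, with a median over all 307 miRNAs tested of 0.0014, but under RPM scaling that median itself was 0.052.

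In plasma, miR-27a-3p had 1140, 1344 and 1574 CPM at 2 months, and 2007, 2538, 2580 and 2701 CPM at 6 months. At 8 months it had 1617, 1797 and 2462 CPM, at 12 months 1285 and 2750, and at 18 months 2720 and 3154. The 3 youngest mice lay below every mouse of 6, 8 and 18 months, and 1 of the 12-month mice lay among them. For each other member in plasma the mice of 2 months overlapped those of 8 months. The share of all miRNAs with such a separation was not counted. Its slope was 0.050 per month (SE 0.023, edgeR adjusted p = 0.298), and its log2 fold change of 12 and 18 months against 2 months was 0.87 (SE 0.32, adjusted p = 0.120). miR-27b-3p in plasma had a slope of 0.053 (SE 0.026, adjusted p = 0.347) and a log2 fold change of 0.76 (SE 0.40, adjusted p = 0.289). miR-23b-3p, from the same cluster, had a slope of -0.0060 (SE 0.021, adjusted p = 0.922). Without both mice of joint code the slopes in plasma were 0.031 for miR-27a-3p, 0.041 for miR-27b-3p and -0.0077 for miR-23b-3p, with 1 mouse of 2 months left.

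**Figure D4:**
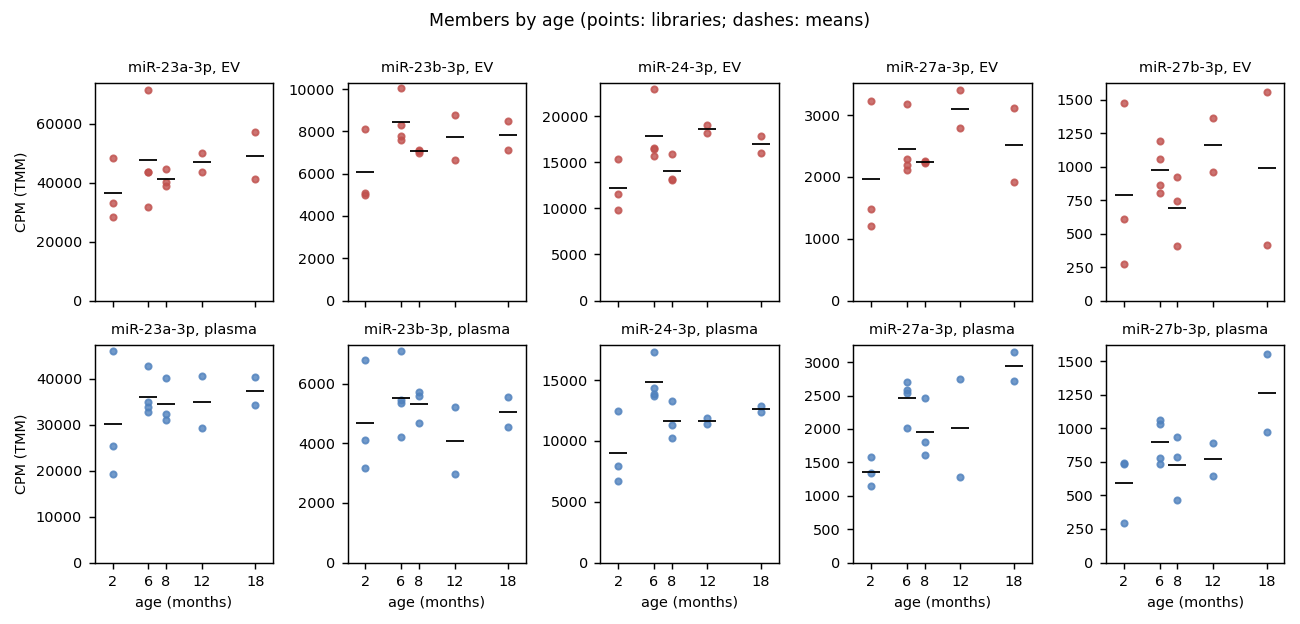
Levels of the 5 members (vertical axes, CPM with TMM scaling, from 0) against age in months, with EVs in the upper panels and plasma in the lower ones, a point per library and a dash per mean of an age. In plasma the 3 mice of 2 months lie between 1140 and 1574 CPM for miR-27a-3p, below both mice of 18 months, and for most panels the ages overlap.

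By edgeR's quasi-likelihood test, 0 of 5 members were called for a trend in EVs, where 1 of 307 miRNAs was (0.326%), and 0 of 5 in plasma, where 0 of 304 were (0%). At an unadjusted p under 0.05 there were 0 members in EVs and 1 in plasma (miR-27a-3p), against 37 and 47 miRNAs. Between 12 and 18 months and 2 months, 0 of 5 members were called in EVs (2 of 307 miRNAs, 0.651%) and 0 of 5 in plasma (3 of 304, 0.987%), with 1 member in each at an unadjusted p under 0.05. Between 6 and 8 months and 2 months, 0 of 5 were called in EVs (0.326% of miRNAs) and 0 of 5 in plasma (0.987%), with 0 and 2 members at an unadjusted p under 0.05. In EVs all 5 members were above 0 in this contrast (median log2 fold change 0.34, beside 0.09 over all miRNAs), but with RPM scaling 1 of 5 was (median -0.10, beside -0.39). For the interaction of age and fraction it was 0 of 5 members (0 of 333 miRNAs, 0%), with 0 at an unadjusted p under 0.05. DESeq2 called 0 members in each of these. A p that misses the threshold in 14 mice, of which only 4 are 12 months or older, does not show that levels stayed the same.

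Rank correlation of RPM with age, the measure used in the study, gave 1 of 5 members with an absolute rho over 0.5 in EVs, where 34 of 307 miRNAs (11.1%) reached it, and 0 of 5 in plasma (26 of 304, 8.55%). The member was miR-27a-3p in EVs, with rho 0.57 (permutation p = 0.0358, adjusted p = 0.358 over 10 correlations) and Pearson's r 0.43 (permutation p = 0.123, adjusted p = 0.206). Without the 2 mice of 18 months its r was 0.50 (permutation p = 0.0951). On other scales its rho in EVs was lower, 0.29 in CPM and 0.34 as a share of miRNA counts. The other members in EVs had rho between 0.37 and 0.41 and r between 0.36 and 0.49. The median rho of all miRNAs in EVs was 0.27 on the RPM scale and 0.02 as shares of miRNA counts, so the RPM of many miRNAs leaned upward with age. In plasma rho lay between 0.02 and 0.35 and r between 0.10 and 0.50, with adjusted p of at least 0.370 and 0.199. Without the 2 mice of 18 months the r of miR-27a-3p in plasma went from 0.50 to 0.21 and that of miR-27b-3p from 0.50 to 0.09, so these relations rested on those mice.

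None of the 4 ratios passed a test with age in either fraction. The nearest by rho was miR-23a-3p to miR-23b-3p in plasma, with rho 0.50 (permutation p = 0.0681, adjusted p = 0.545 over 8). Its r was 0.45 (permutation p = 0.104, adjusted p = 0.418), and 0.51 without the mice of 18 months. By r the nearest was miR-27 to miR-23 in plasma, with r 0.50 (permutation p = 0.0694, adjusted p = 0.418) and rho 0.37 (permutation p = 0.190). Without the mice of 18 months that r was 0.20. The geometric mean of miR-23a-3p to miR-23b-3p in plasma was 6.31 at 2 months, 6.57 at 6, 6.43 at 8, 8.70 at 12 and 7.40 at 18 months. The 4 oldest mice lay between 7.26 and 9.72 and overlapped the mice of 6 months, which reached 7.85.

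The members moved together across libraries. On the log2 CPM scale, Pearson's r between pairs of members over the 14 EV libraries ran from 0.62 to 0.87, and over the 14 plasma libraries from 0.44 to 0.83. In EVs the highest was miR-23b-3p with miR-24-3p, and in plasma miR-23a-3p with miR-24-3p. Libraries share their own depth and scaling across all miRNAs, so these are descriptions, not tests.

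The 5 miRNAs outside the members whose log2 CPM was most like the members' mean over the 28 libraries were miR-29a-3p (r = 0.87), miR-29c-3p (0.75), miR-223-3p (0.71), miR-29b-3p (0.70) and miR-24-2-5p (0.69), among 328 compared with a median r of 0.02. Inside EVs their r were 0.89, 0.73, 0.77, 0.75 and 0.87, and inside plasma 0.89, 0.77, 0.86, 0.74 and 0.43. The same 5 came first on the log2(RPM + 1) scale. miR-29a, miR-29b and miR-29c form a seed family, miR-223 is a myeloid and platelet miRNA, and miR-24-2-5p comes from Mir24-2 itself.

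Several marker lists, of blood cells and of other tissues, varied with the members' share and others did so less. The platelet and myeloid markers (3 of 3 read in every library) summed to between 1.47 and 4.43% of miRNA counts in EVs and between 1.47 and 3.94% in plasma, and their rho with the members' summed share was 0.77 in EVs and 0.83 in plasma (n = 14 each, both shares of the same counts). The markers were higher in EVs in 5 of 14 mice. In EVs they were 1.47 to 2.26% at 2 months and 2.55 to 3.39% at 12 and 18 months, without overlap (rho with age 0.61). How many of all miRNAs separate these ages was not counted. In plasma the same ages overlapped, at 1.47 to 2.58% and 2.28 to 2.99% (rho with age 0.14). Red cell markers (6 of 6 read in every library) summed to 10.2 to 33.4% in EVs and 13.6 to 35.8% in plasma, and their rho with the members' share was -0.57 and -0.76. In EVs they were 24.4 to 33.4% at 2 months and lower, 15.1 to 22.4%, at 6 and 8 months. At 12 and 18 months they were 10.2 to 30.8% and overlapped the youngest. In plasma they were 22.3 to 35.8% at 2 months and overlapped all later ages. All these sums are shares of the same counts, so a larger red cell share by itself leaves less for the members. White cell markers (5 of 5 read in every library) were 2.89 to 4.82% in EVs and 2.63 to 4.62% in plasma. They were higher in EVs in 13 of 14 mice, with rho of 0.29 and 0.39 with the members' share. Smooth muscle markers (2 of 2) were 0.319 to 2.26% in EVs with a rho of 0.80, and 0.307 to 2.62% in plasma with a rho of 0.38. In EVs they too did not overlap between 2 months (0.324 to 0.735%) and 12 and 18 months (0.743 to 1.32%), with a rho with age of 0.62. In plasma these ages overlapped, at 0.307 to 0.811% and 0.515 to 1.27%, with a rho with age of 0.47. Endothelial markers (2 of 2) were 1.90 to 11.2% and 1.68 to 8.59%, with rho of 0.69 and 0.42. Their list shares miR-126a-3p with the platelet and myeloid list, so these 2 sums are not separate. Liver markers (4 of 4) were 0.424 to 3.04% in EVs and 0.314 to 2.43% in plasma, with rho of 0.64 and 0.26. Markers of skeletal muscle and heart (4 of 4) were at most 0.110% in either fraction, with rho of 0.72 and 0.58. For this list and those of white cells, endothelium and liver, 2 months overlapped 12 and 18 months in both fractions. Red cell markers were higher in EVs in 4 of 14 mice, endothelial markers in 8 and smooth muscle markers in 3. Liver markers were higher in EVs in 10 of 14 mice, and those of skeletal muscle and heart in 5. The part of these cell types in the members' values was not tested.

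**Figure D5:**
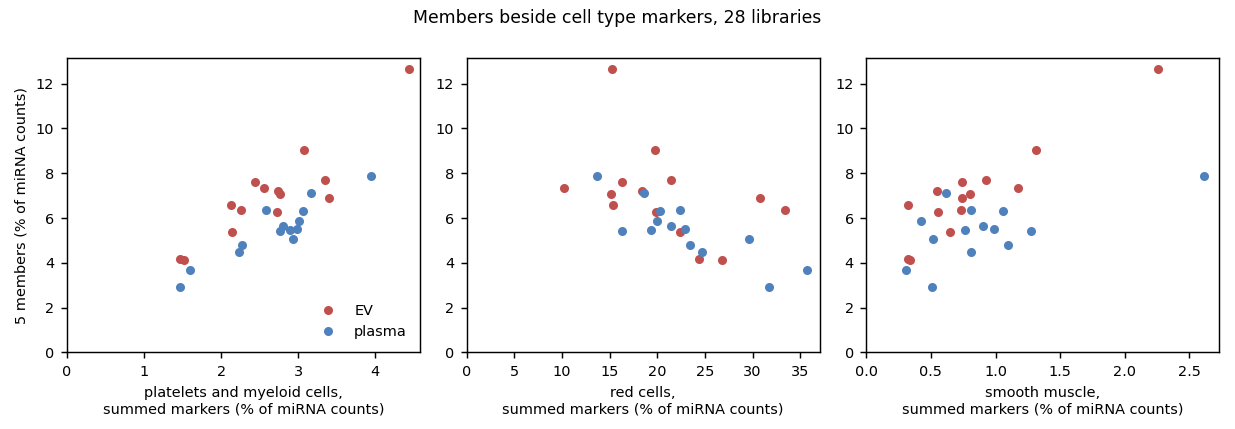
Summed share of the 5 members (vertical axis, % of miRNA counts) against summed markers of platelets and myeloid cells, red cells and smooth muscle (horizontal axes, % of miRNA counts), a point per library, EVs and plasma in separate colours. The members' share is highest, at 12.7%, in the EV library with the highest platelet and myeloid sum of 4.43%. That library also has the highest smooth muscle sum among EV libraries, 2.26%, and a red cell sum of 15.2%.

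The haemolysis index, the ratio of miR-451a to miR-23a-3p, was lower in EVs than in plasma. Its denominator is a member that was itself higher in EVs in 13 of 14 mice in CPM. The log2 fold change of miR-451a lay between -0.23 and 0.21 over the alternative fits. The index is therefore not separate from the miR-23a-3p difference, and whether it measures haemolysis in an EV pellet was not tested. It ran from 1.37 to 7.22 in EVs with a median of 3.23, and from 2.02 to 11.8 in plasma with a median of 4.05. All but 2 of 14 mice were lower in EVs, with a mean log2 difference of -0.49 (SD 0.53, exact sign-flip p = 0.00574), and of -0.57 without both mice of joint code (exact sign-flip p = 0.000977). The mice of 2 months had the highest geometric means, 6.71 in EVs and 7.84 in plasma, and those of 6 months were at 2.28 and 3.08. With age the index had rho -0.42 in EVs (permutation p = 0.138) and r -0.47 (permutation p = 0.0930), and rho -0.06 in plasma (permutation p = 0.836) and r -0.21 (permutation p = 0.481). Without the mice of 18 months r was -0.36 and -0.17. In CPM the mice of 2 months also had the lowest mean miR-23a-3p in each fraction, whereas in RPM those of 8 months had it. The part of red cells in the members' levels was not tested.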

How the data were processed

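EV pellets and EV-depleted plasma of 14 mice were used, both fractions of 1 replicate forming a pair. The deposited estimated counts per RNA were made by the authors. miR-24-3p was 1 of 46 miRNAs whose counts were not whole in some libraries (multiples of 0.5 for miR-24-3p). Some reads were therefore shared out in parts. A miR-24-3p read split over its 2 hairpins would count as whole if both parts were kept. The miR-24-3p counts may thus not hold all of its reads, which was not tested. If so, its level, its ratio to the other members and the shares of its other arms would differ. The RPM values the authors deposited are a signal equal to counts over 1 number per library that is not the column total. The submitters' processing notes name mm10 and R 4.0.4; the aligner, annotation and sharing rule: not given in the sources used here. Counts were rounded and tested with edgeR 4.0.16 in R 4.3.3 (quasi-likelihood, TMM over miRNAs, age as covariate between fractions), with Benjamini-Hochberg adjustment and threshold 0.05. A miRNA was tested if over 10% of either fraction's libraries held 1 RPM or more. Ratios had 0.5 added to each count and were tested by exact sign flips (16384 patterns), and correlations by permutation (100000 resamples; scipy 1.17.1). Scripts were tested on simulated data.

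The pairing comes from the animal. For 2-month replicates 2 and 3 the plasma labels carry a joint code, and these were paired by replicate number. Deviations from the age means correlated between the fractions of a mouse at r = 0.03 to 0.63 over 278 miRNAs. At 12 and 18 months, with 2 mice each, both mice of an age have the same r by construction. Fractions of different mice of an age were not compared, so these values do not check the pairing. Members, marker lists and tests were chosen with earlier results of these data known. Named were the members, the other arms, seed sharers, marker sums, miR-451a and the 5 miRNAs most like the members. Apart from that joint code mice are taken as separate animals, and intervals cover counting error only. Alternatives were other scalings, filters, DESeq2 1.42.0, the mouse as a block, log2 of age, other pseudocounts and leaving out mice. Other RNA classes were not used here.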

Additional observations from a re-analysis of the deposited data

Results flagged for a closer look

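At 6 months the EV library of replicate 4 stood apart from the other 3 for several members: 691 RPM for miR-23a-3p, 96.8 RPM for miR-23b-3p and 30.7 RPM for miR-27a-3p, and 22967 CPM for miR-24-3p and 3183 CPM for miR-27a-3p. In each case it was the highest, and its gap to the next library, as a share of the range of the 4, passed Dixon's 95% critical value. Of 30 groups of values looked at, 5 stood apart in this way. Chance gives about 1 in 20, and the values of 1 library are not independent. Among EV libraries this one also had the highest marker sums of platelets and myeloid cells (4.43% of miRNA counts) and of endothelium (11.2%). The same held for smooth muscle (2.26%), liver (3.04%), and skeletal muscle and heart (0.0914%), but not for red cells or white cells. The part of these cell types was not tested.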

How the results depend on the processing

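Between fractions, 2 of 5 members were called; 1 was called with RPM scaling, with scaling to miRNA counts, with no filter on low values and, chosen after seeing the data, without both mice of joint plasma code, 3 with the mouse as a block, with DESeq2 and with the 5 RPM filter, and 1 to 3 with 1 mouse left out. miR-23b-3p was called in all 25 alternatives (log2 fold change 0.51 to 0.82), miR-24-3p in 16 and miR-23a-3p in 6. miR-27b-3p turned to -0.10 with the mouse as a block and without the mice of joint code, and to -0.015 without them and with no block. The count of all miRNAs called went from 61 to between 35 and 88. For age, 0 members were called under any alternative, while the miRNAs called ranged from 0 to 8 for the trend in each fraction, 0 to 7 for 12 and 18 against 2 months in EVs, 0 to 25 in plasma, 0 to 7 and 0 to 13 for 6 and 8 against 2 months, and 0 to 1 for the interaction. With the mouse as a block the interaction also had 0 members called. With RPM scaling the sign turned for miR-23b-3p in plasma (slope 0.0094; 12 and 18 against 2 months 0.16) and for the interaction slopes of miR-27a-3p (0.015) and miR-27b-3p (0.010), and for 6 and 8 against 2 months in EVs the members above 0 went from 5 to 1. Without both mice of joint code signs turned for the interaction of miR-27a-3p (0.0030) and miR-27b-3p (0.0088) and for 12 and 18 against 2 months of miR-23b-3p in plasma (0.13).

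With 1 mouse left out, values that changed sign were the slope of miR-27b-3p in EVs (-0.0083 to 0.058) and of miR-23b-3p in plasma (-0.018 to 0.0046), the interaction of miR-27a-3p (-0.035 to 0.0073) and miR-27b-3p (-0.046 to 0.0018), and the old against young log2 fold change in plasma of miR-23a-3p (-0.0090 to 0.65) and miR-23b-3p (-0.26 to 0.29). For ratios these were miR-24-3p to the other members between fractions (-0.0036 to 0.057) and with age in plasma (rho -0.20 to 0.14), and miR-451a to miR-23a-3p with age in plasma (rho -0.13 to 0.15). Members with an absolute rho over 0.5 numbered 1, 2 with CPM, and 0 to 2 with 1 mouse left out. They were 0 without 2-month replicate 1 or 18-month replicate 2. Which members they were changed with the scale. In CPM they were miR-24-3p in EVs (rho 0.51) and miR-27a-3p in plasma (0.57), with a permutation adjusted p of 0.325 for each. As a share of miRNA counts it was miR-23a-3p in EVs (rho 0.58, permutation adjusted p = 0.333). Of 4 ratios 1 differed between fractions, and 1 to 2 with 1 mouse left out, the second only without 2-month replicate 3; with no replicate block, permuting fraction labels over libraries, the count stayed at 1. The cause of these changes was not tested.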
